A study of Mus musculus with 10 samples.

Results

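In all, 8 long non-coding RNA genes were followed in the cortex of mice with the genotype Atad3 nKO and of control littermates: Malat1, Neat1, Meg3, Rian, Mirg, Kcnq1ot1, Miat and Snhg11. They are 8 of the 24972 genes in the deposited gene tables and were chosen by name, with earlier results of these data known. Malat1 was the starting point because its level differed between the genotypes in a DESeq2 test, so the genotype differences given here are descriptions and not tests. Each RNA was read in all 10 libraries, together with its annotated transcripts, and each was compared with Malat1 library by library.

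The tested animals were 5 nKO mice and the others 5 control littermates, all male C57BL/6, 2.5 months old and perfused with PBS before the cortex was taken. One library was made per animal from total RNA by a stranded protocol that removes ribosomal RNA, and Salmon and DESeq2 are named in the submitters' processing notes. What nKO stands for is not written in the labels, nor is a driver line or the part of the gene that was deleted, so the cells that lost Atad3a are not known from them. All running numbers of nKO libraries in the labels are higher than those of controls. If they follow the order of handling, that order and the genotype cannot be told apart.

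Long non-coding RNAs are transcribed and often spliced like messenger RNAs but carry no known protein product, and many stay in the nucleus. Malat1 gathers in nuclear speckles, bodies rich in splicing factors, while the long form of Neat1 is the scaffold on which paraspeckles are built. Meg3, Rian and Mirg are read from the maternal copy of the imprinted Dlk1-Dio3 domain and host small RNAs, whereas Kcnq1ot1 is read from the paternal copy of the Kcnq1 domain and silences neighbouring genes there in mouse. Miat, also called Gomafu, forms nuclear spots in neurons, and Snhg11 is a small nucleolar RNA host gene expressed in neurons. Where in the cell these RNAs were located was not measured in these libraries.

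Malat1 lies on chr19:5795690-5802672 of the build GRCm38, minus strand, and is a single-exon RNA. Its 3′ end is shown because it is not made by polyadenylation: the U-rich runs and the A-rich tract in capitals fold into a triple helix, and cleavage after the tract releases a tRNA-like small RNA. These 176 bases, chr19:5795912-5796087 on the minus strand, come from the GENCODE M21 transcript and are written as DNA.
Malat1 3′ end: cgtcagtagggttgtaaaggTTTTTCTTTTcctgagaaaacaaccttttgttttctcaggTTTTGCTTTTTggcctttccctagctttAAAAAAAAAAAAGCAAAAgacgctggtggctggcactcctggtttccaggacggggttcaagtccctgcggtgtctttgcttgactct
The tract lies 292 bases before the end of the annotated gene, so any reads from the released tail would also count toward Malat1. A gap of 22035 bases separates Neat1 from Malat1, and it lies on chr19:5824708-5845480, minus strand. The 100 bases around the end of its short form, chr19:5842267-5842366 on the minus strand, are shown because they separate the 2 forms measured below, and the AATAAA polyadenylation signal is in capitals.
Neat1, end of the short form: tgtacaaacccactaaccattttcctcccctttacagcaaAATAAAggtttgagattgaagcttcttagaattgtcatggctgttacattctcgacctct
The signal starts 20 bases before the position where the short form ends, which is base 3172 of the 20771 bases of the long GENCODE transcript.

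The promoters of Malat1 and Kcnq1ot1 are shown because these 2 RNAs had an unadjusted 95% interval of the genotype difference above 0. Malat1 had been chosen for that difference. Of all tested genes, 5.65% had an unadjusted p under 0.05 in the edgeR test described below. Each promoter runs from 250 bases before to 50 bases after the start in RefSeq (GRCm38). Both lie on the minus strand, at chr19:5802623-5802922 and chr7:143296498-143296797. Capitals mark CCAAT, searched on both strands and found in 37.4% of 32851 promoters of the same length.
Malat1 promoter: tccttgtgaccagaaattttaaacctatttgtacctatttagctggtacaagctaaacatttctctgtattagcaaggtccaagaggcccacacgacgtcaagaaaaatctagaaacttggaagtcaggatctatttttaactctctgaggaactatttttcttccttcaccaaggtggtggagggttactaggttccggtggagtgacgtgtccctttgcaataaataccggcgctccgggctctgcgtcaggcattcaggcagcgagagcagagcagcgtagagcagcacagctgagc
Kcnq1ot1 promoter: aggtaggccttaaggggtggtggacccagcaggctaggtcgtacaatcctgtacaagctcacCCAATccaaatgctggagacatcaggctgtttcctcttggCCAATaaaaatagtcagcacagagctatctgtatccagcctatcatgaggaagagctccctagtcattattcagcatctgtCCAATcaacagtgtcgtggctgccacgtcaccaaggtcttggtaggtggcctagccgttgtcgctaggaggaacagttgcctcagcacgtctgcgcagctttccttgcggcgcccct
Kcnq1ot1 held 3 matches and Malat1 held 0, and neither held TATAAA on either strand, which 13.6% of the promoters did. The Malat1 window held 10 CG pairs and the Kcnq1ot1 window 9, beside a median of 7 over all promoters. A match describes letters in the window and is not a bound site.

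The libraries held 14812639 to 24161361 estimated counts. Atad3a, the targeted gene, averaged 11.48 ± 1.97 CPM in nKO and 23.68 ± 1.87 CPM in control cortices (SD, n = 5 each), and the groups did not overlap, which fits the labels. CPM are counts scaled to a common library size, with TMM factors. In the edgeR quasi-likelihood test with Benjamini-Hochberg adjustment at 5%, 2 of 14378 tested genes were called, 0.0139% of them, while 812 had an unadjusted p under 0.05 and DESeq2 called 5 of 14359 genes, or 0.0348%. Control 1 stood apart by its ribosomal precursor RNA Rn45s, at 50.7 CPM against 0.9 to 4.3 CPM in the other libraries, here scaled by library size alone.

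Malat1 took the largest number of counts of any gene in 10 of 10 libraries. It held 16280, 14490, 17600, 18260 and 15010 CPM in nKO 1 to 5, against 11720, 12170, 11060, 12730 and 13640 CPM in control 1 to 5. Every nKO library lay above every control library, a pattern that 101 of 14378 genes, 0.702%, showed in this direction. The means were 16330 ± 1620 CPM in nKO and 12260 ± 985 CPM in controls (SD, n = 5 each), a 1.33-fold ratio and a log2 fold change of 0.41 (SE 0.08, 95% interval 0.24 to 0.58). A larger absolute log2 fold change was found in 4.50% of the tested genes. As a share of all counts, Malat1 came to 1.469% to 1.784% in nKO and 1.117% to 1.393% in control libraries. DESeq2 gave Malat1 an adjusted p of 0.0275, the value that led to the choice of this RNA, while edgeR did not call it. Over 20 other settings, including each library left out, its log2 fold change ran from 0.34 to 0.45. In the authors' deposited table of a score for 22 genes, where Malat1 is the 1 RNA of the 8 present, its score was 0.19 to 1.77 in nKO and -2.16 to -0.19 in control libraries. In bulk tissue, fewer cells of a type and less RNA per cell cannot be told apart, for this and every RNA that follows.

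**Figure D1:**
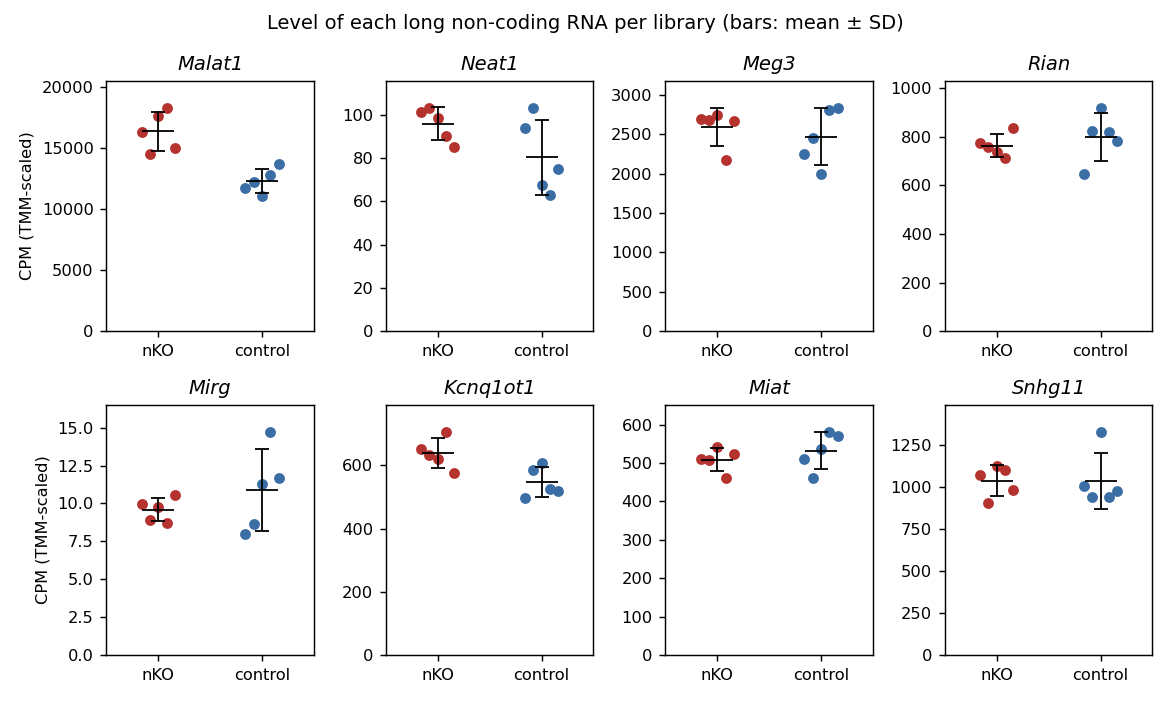
Level of the 8 long non-coding RNAs in each library, in TMM-scaled CPM, with nKO in red on the left and control in blue on the right of each panel; each point is 1 animal and bars are the mean ± SD of 5. For Malat1 the lowest nKO library, at 14490 CPM, lies above the highest control, at 13640 CPM, and for the other 7 RNAs the groups overlap.

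Neat1, the paraspeckle scaffold and neighbour of Malat1, was measured at 101.3, 103.2, 98.64, 90.4 and 85.26 CPM in nKO 1 to 5. The controls 1 to 5 held 93.74, 103.2, 67.38, 62.81 and 74.82 CPM. The groups overlapped, since control 2 matched the highest nKO library and control 1 lay above 2 of them. The means were 95.8 ± 7.65 CPM in nKO and 80.4 ± 17.4 CPM in controls (SD, n = 5 each), with a log2 fold change of 0.25 (SE 0.13, 95% interval -0.02 to 0.53). With effective lengths as offsets, which allow for the length of the form that was read, the value was 0.14 (SE 0.07).

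Neat1 has a long RefSeq transcript of 20769 bases and a short one of 3185 bases that shares its start, and Salmon divides reads from the shared part between them. Of the Neat1 counts, 59.9%, 64.6%, 53.0%, 54.6% and 46.7% went to the long form in nKO 1 to 5, against 59.3%, 65.1%, 47.2%, 38.6% and 36.8% in control 1 to 5. The groups overlapped, with the 2 lowest shares both in controls. The mean share was 55.8% ± 6.81 in nKO and 49.4% ± 12.5 in controls (SD, n = 5 each), and an exact two-sided permutation test gave p = 0.333. Per length the order is the other way: the short form was 79.8% to 89.5% of the Neat1 TPM in nKO and 80.0% to 92.6% in control libraries. The long form ran from 4.699 to 7.99 TPM in nKO and from 2.831 to 7.99 TPM in controls, with a log2 fold change in counts of 0.38 (SE 0.29). The short form ran from 31.61 to 40.59 TPM in nKO and from 29.09 to 41.35 TPM in controls, with a log2 fold change in counts of 0.10 (SE 0.10).

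Meg3, Rian and Mirg follow each other on the plus strand of chromosome 12, at chr12:109540996-109571729, chr12:109603945-109661716 and chr12:109734981-109749458. Gaps of 32215 and 73264 bases separate them. Meg3 held 2700, 2677, 2748, 2170 and 2667 CPM in nKO 1 to 5, against 2252, 2449, 1995, 2812 and 2836 CPM in control 1 to 5. In nKO 4 the value lay well under the other 4 nKO libraries, and the 2 highest values were in controls. The log2 fold change of Meg3 was 0.07 (SE 0.10, 95% interval -0.15 to 0.29). Rian held 774.3, 759.8, 738.1, 711.9 and 838.2 CPM in nKO 1 to 5, against 648.8, 824.6, 919.7, 820.5 and 784.8 CPM in control 1 to 5. All 5 nKO libraries fell within the control range, with a log2 fold change of -0.07 (SE 0.09, 95% interval -0.25 to 0.12). Mirg, the rarest of the 8 by counts, held 9.942, 8.933, 9.793, 8.734 and 10.53 CPM in nKO 1 to 5, against 7.972, 8.632, 11.27, 14.75 and 11.68 CPM in control 1 to 5. Its nKO libraries again lay within the control range, with a log2 fold change of -0.18 (SE 0.16, 95% interval -0.52 to 0.15). Mirg rests on 132 to 275 counts per library. The 3 RNAs of the domain thus had no common direction, with Meg3 higher and the others lower in nKO by less than the spread between animals.

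Meg3 has 3 RefSeq transcripts in the tables, of 11472, 11460 and 1913 bases. The 11472-base form took 40.3%, 40.5%, 40.6%, 47.9% and 39.5% of the Meg3 counts in nKO 1 to 5, against 35.2%, 42.0%, 39.4%, 39.2% and 37.7% in control 1 to 5. The groups overlapped, and nKO 4 lay above all other libraries (exact two-sided permutation p = 0.159). The 11460-base form took 53.6% ± 3.06 in nKO and 56.3% ± 2.09 in controls (SD, n = 5 each, exact permutation p = 0.143), and the 1913-base form 4.63% ± 0.735 in nKO and 5.06% ± 0.662 in controls (exact permutation p = 0.349). The 2 long forms differ little in length, so their division may depend on few reads that tell them apart.

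Kcnq1ot1 is a long unspliced antisense RNA of 83437 bases at chr7:143213111-143296547, minus strand. It held 653.4, 634.3, 621.8, 707.3 and 575.5 CPM in nKO 1 to 5, against 498.0, 586.4, 608.2, 524.1 and 518.3 CPM in control 1 to 5. In all, 4 of 5 nKO libraries lay above the highest control, and nKO 5 lay under 2 controls. The means were 638.5 ± 48.0 CPM in nKO and 547.0 ± 47.5 CPM in controls (SD, n = 5 each), with a log2 fold change of 0.22 (SE 0.08, 95% interval 0.06 to 0.39). Without control 1 and nKO 4, the libraries at the ends of the length measure described below, it was 0.14 (SE 0.07). Of the coding genes in the Kcnq1 domain, 5 of 13 listed passed the count filter and 5 of 5 had a negative log2 fold change, with 0 called by edgeR, 0 with an unadjusted p under 0.05 and a median of -0.11 on the log2 scale, beside -0.01 over all tested genes. Without nKO 4, 6 genes of the domain passed the filter and 2 were positive, and the same counts were found without control 1. Without both libraries, 3 of 6 were positive, with a median of 0.001. Cdkn1c, an imprinted inhibitor of the cell cycle, averaged 3.485 ± 0.553 CPM in nKO and 4.308 ± 1.02 CPM in controls, a log2 fold change of -0.31 (SE 0.18).

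Miat, at chr5:112213228-112228948 on the minus strand, held 511.3, 507.7, 541.4, 461.7 and 524.1 CPM in nKO 1 to 5, against 511.6, 461.2, 535.7, 582.4 and 571.7 CPM in control 1 to 5. All 5 nKO libraries lay within the control range, with a log2 fold change of -0.06 (SE 0.07, 95% interval -0.23 to 0.10). Miat has 2 transcripts of similar length, 8716 and 8760 bases, and their division may also depend on few reads. The 8760-base form took 3.86%, 0.881%, 8.58%, 4.46% and 8.23% of the Miat counts in nKO 1 to 5, against 18.4%, 5.73%, 3.59%, 8.11% and 16.4% in control 1 to 5. The 2 highest shares were in controls and the lowest in nKO, and the groups overlapped. The mean share was 5.20% ± 3.23 in nKO and 10.5% ± 6.59 in controls (SD, n = 5 each, exact two-sided permutation p = 0.190). Its log2 fold change in counts was -1.07 with an SE of 0.64, so the interval, -2.50 to 0.36, was wide.

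**Figure D2:**
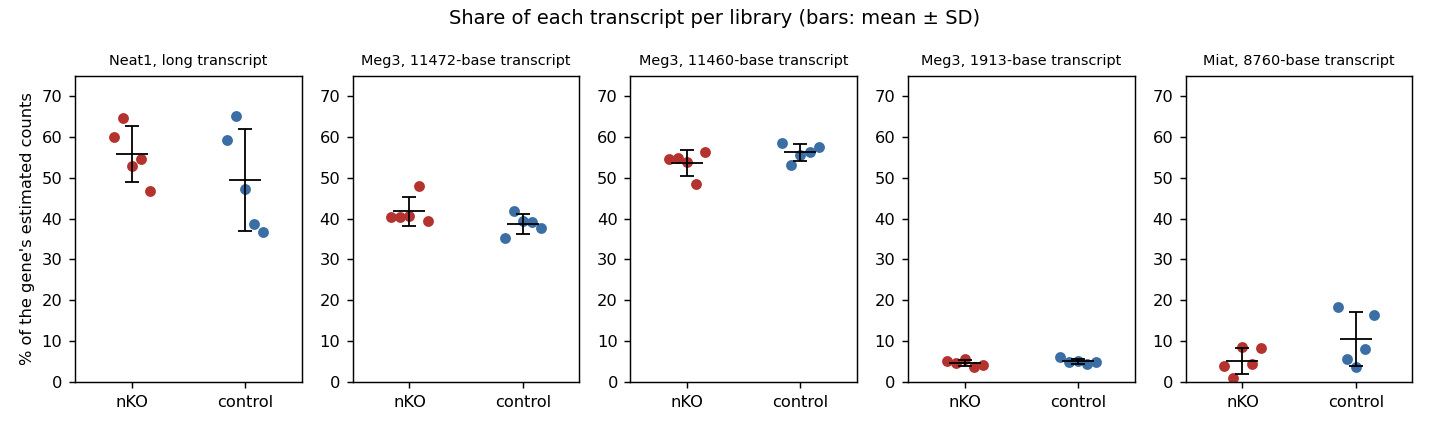
Share of the estimated counts of Neat1, Meg3 and Miat that went to single transcripts, in percent on the vertical axis, with nKO in red on the left and control in blue on the right; points are animals and bars the mean ± SD of 5. The groups overlap in all 5 panels, and the long Neat1 form spreads from 36.8% to 65.1% in controls alone.

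Over the 3 genes with more than 1 transcript, 0 of the 7 shares passed 5% after adjustment over 12762 transcripts, where 0 passed (0.0%) and 588, 4.61%, had an unadjusted exact p under 0.05. The adjusted p was 0.995 for each of the 7, and the smallest p that 5 against 5 libraries can give is 0.00794. With 12762 transcripts, a share at that p could pass only if very many others reached it too. The adjusted test therefore cannot decide about a single share. The usage test of edgeR (diffSpliceDGE with Simes) called 1 of 4740 genes, 0.0211%, and none of these 3, with an adjusted p of 0.99999 each. Single transcripts were not called by edgeR either, at 0 of 22343 (0.0%). The test of DESeq2 called 28 of 22343 transcripts. The Malat1 transcript was among them, with a DESeq2 adjusted p of 0.00148, and Malat1 had been chosen for its difference in this contrast. Among the transcripts of the other RNAs followed here, the smallest DESeq2 adjusted p was 0.4101, for Kcnq1ot1.

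Snhg11, at chr2:158375713-158386474 on the plus strand, held 1069, 902.1, 1121, 1102 and 982.6 CPM in nKO 1 to 5, against 1002, 936.9, 1328, 939.8 and 972.0 CPM in control 1 to 5. Control 3 was the highest of all and nKO 2 the lowest, and the other values overlapped. The means were 1035 ± 91.5 CPM in nKO and 1036 ± 165 CPM in controls (SD, n = 5 each). The log2 fold change was near 0 with an SE of 0.10, and its sign turned in 4 of 20 other settings, up to 0.11 without control 3.

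**Figure D3:**
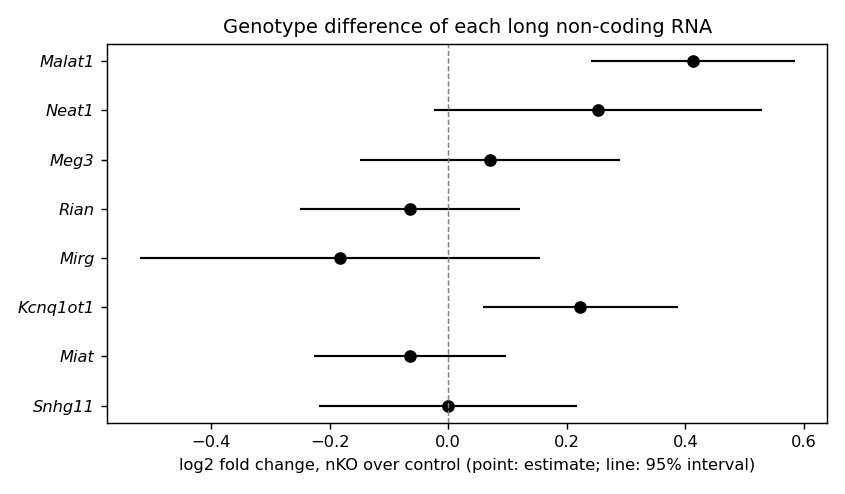
Log2 fold change of the 8 long non-coding RNAs, nKO over control, on the horizontal axis, with the point as the edgeR estimate and the line as its 95% interval. The intervals of Malat1 (0.24 to 0.58) and Kcnq1ot1 (0.06 to 0.39) lie above 0 and the other 6 include 0. The intervals are not adjusted, and Malat1 had been chosen for its difference.

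Across the 8 RNAs, all of which passed the count filter, 4 had a positive and 4 a negative log2 fold change, beside 47.8% positive over all tested genes. The edgeR test called 0 of 8, with 2 of 14378 genes called (0.0139%) and 2 of the 8 at an unadjusted p under 0.05. These counts use the contrast that led to the choice of Malat1, and nothing is read from them.

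Per length, Malat1 was also the most abundant of the 8. TPM are counts per base of effective length, scaled to the same total in each library, so they allow levels of different RNAs to be compared. Malat1 reached 6021 ± 562 TPM in nKO and 4456 ± 440 TPM in controls (SD, n = 5 each) and ranked 1 to 7 among all genes. Meg3 followed with 797.6 ± 73.1 TPM in nKO and 740.7 ± 112.0 TPM in controls, Rian with 570.0 ± 35.2 TPM in nKO and 587.0 ± 76.7 TPM in controls, and Snhg11 with 468.6 ± 41.2 TPM in nKO and 457.5 ± 72.6 TPM in controls. Miat stood at 175.2 ± 5.86 TPM in nKO and 172.5 ± 23.5 TPM in controls. The 3 others were far from abundant by this measure: Neat1 had 43.8 ± 2.71 TPM in nKO and 38.2 ± 4.10 TPM in controls, Mirg 24.6 ± 1.95 TPM in nKO and 26.5 ± 7.67 TPM in controls, and Kcnq1ot1 20.6 ± 1.77 TPM in nKO and 17.2 ± 1.52 TPM in controls. Mirg ranked 5660 to 8517 and Kcnq1ot1 7846 to 8733 among the genes. Kcnq1ot1 falls from above Neat1 by counts to the last place by TPM because its annotated length is so large. In this order each RNA lay above the next in at least 9 of 10 libraries. Neighbours were separated by 1.25-fold between Rian and Snhg11 and by 6.81-fold between Malat1 and Meg3, as ratios of mean TPM.

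Whether the other 7 RNAs followed Malat1 from library to library was then examined with log2 CPM over the 10 libraries. Pearson's r with Malat1 was tested by 100000 permutations and adjusted over 14377 genes. The 10 libraries fall into the 2 genotypes and Malat1 differs between them, so r was also taken after each value was centred on the mean of its group. On this pooled scale Kcnq1ot1 had the highest r of the 7, at 0.66 (permutation p = 0.0400, adjusted p = 0.448; Spearman's rho 0.65, permutation p = 0.0492), and 4.31% of genes had a higher r. It was 0.74 without nKO 4 and control 3, the libraries farthest from the median of Malat1, and 0.40 without nKO 4 and control 1. Within the groups no relation was detectable, with a centred r of 0.07 (exact permutation p = 0.841). Neat1 had r = 0.44 (permutation p = 0.203; rho 0.24, permutation p = 0.514), 0.29 without the 2 libraries and -0.10 after centring (exact permutation p = 0.792). On the log2 scale of TPM plus 0.1, where each library is scaled by effective length, Neat1 had the highest r of the 7, at 0.84 (permutation p = 0.00372, adjusted p = 0.0998), and Kcnq1ot1 had 0.68 (permutation p = 0.0345, adjusted p = 0.259). On this scale the median r over all tested genes was 0.18, beside -0.02 with log2 CPM. These TPM values are pooled over the genotypes, and no centred r was taken for them. With log2 CPM, no relation with Malat1 was detectable for either RNA among animals of 1 genotype.

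The imprinted RNAs of chromosome 12 and the neuronal RNAs lay nearer to 0. Meg3 had r = 0.33 (permutation p = 0.349; rho 0.26, permutation p = 0.468), 0.58 without the 2 libraries and 0.26 after centring. Rian had r = -0.35 (permutation p = 0.321; rho -0.42, permutation p = 0.232), 0.13 without them and -0.33 after centring (exact permutation p = 0.347). Its r depended much on single libraries. Without control 1 it was -0.87 (permutation p = 0.00215, adjusted p = 0.204), and without control 1 and nKO 4 together -0.82 (permutation p = 0.0121, adjusted p = 0.181). Without control 3 it was only -0.075 (permutation p = 0.853). With any 1 library left out it ran from -0.87 to -0.075. Mirg had r = -0.18 (permutation p = 0.626, rho -0.07 with permutation p = 0.865), 0.07 without nKO 4 and control 3 and 0.17 after centring. The sign for Mirg thus turned with the setting, and none of the adjusted p-values for Rian passed 5%. Miat had r = -0.21 (permutation p = 0.550; rho -0.16, permutation p = 0.659), 0.17 without them and 0.08 after centring. Snhg11 had r = 0.02 (permutation p = 0.957; rho 0.19, permutation p = 0.608) and 0.66 without nKO 4 and control 3, control 3 being its own highest library. None of the 7 passed 5% after adjustment, nor did any of 14377 genes in either direction (0.0%). A gene that reached the smallest permutation p, 1e-05, on its own would have an adjusted p of 0.144. On the TPM scale 176 of the 14377 genes passed and none of the 7 did.

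**Figure D4:**
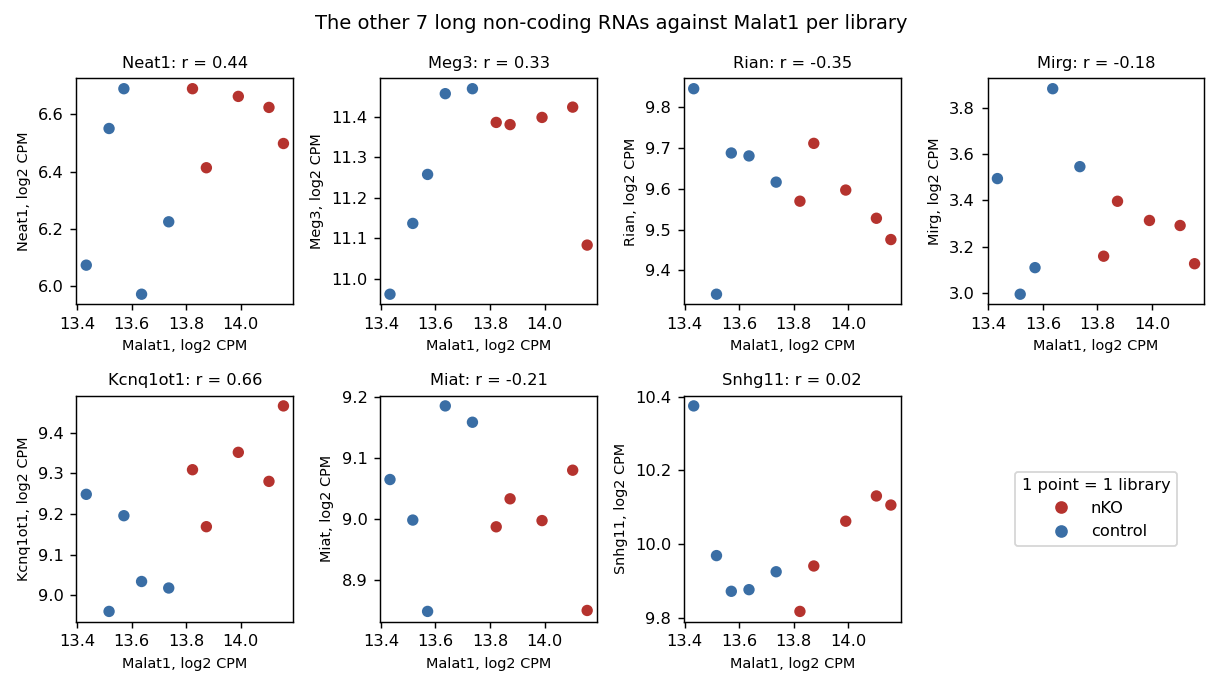
Log2 CPM of the other 7 long non-coding RNAs on the vertical axes against log2 CPM of Malat1 on the horizontal axes, with 1 point per library, nKO in red and control in blue. Kcnq1ot1 has the highest r, 0.66, and its r is 0.07 after values are centred on their group means.

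**Figure D5:**
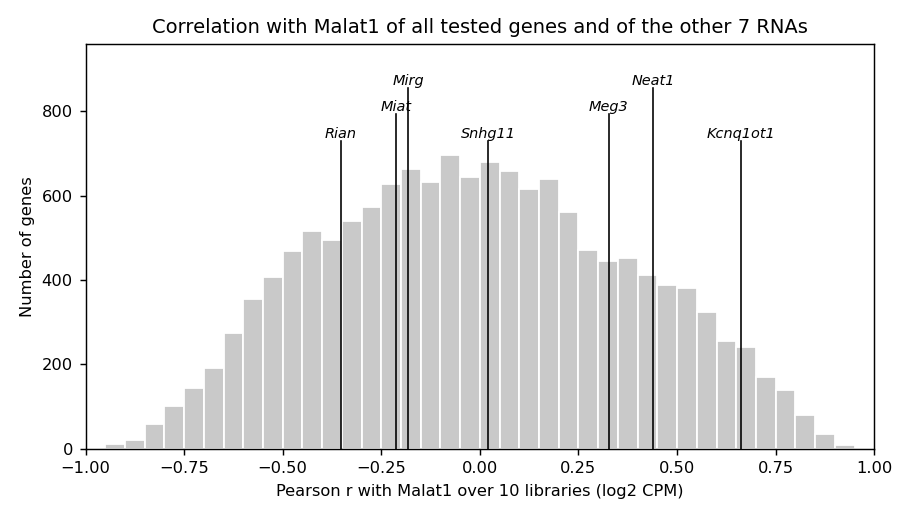
Distribution of Pearson's r with Malat1 over 10 libraries for all tested genes (grey bars, number of genes on the vertical axis), with the other 7 long non-coding RNAs marked by lines. The RNAs are spread from -0.35 for Rian to 0.66 for Kcnq1ot1, which lies in the upper tail, with 4.31% of genes above it.

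Among the other 21 pairs of the 8 RNAs, the widest r belonged to Neat1 and Mirg, at -0.84 (permutation p = 0.00191, rho -0.75 with permutation p = 0.0176, -0.65 without control 3 and control 4, adjusted p = 0.887 over all genes against Neat1). Mirg and Miat had r = 0.81 (permutation p = 0.00417, rho 0.79 with permutation p = 0.00949, 0.71 without control 2 and control 4, adjusted p = 0.668 over all genes against Miat). Neat1 and Miat had r = -0.68 (permutation p = 0.0319, rho -0.76 with permutation p = 0.0147, -0.55 without control 3 and control 4, adjusted p = 0.887). Meg3 and Snhg11 had r = -0.64 (permutation p = 0.0412, rho -0.38 with permutation p = 0.279, adjusted p = 0.339 over all genes against Meg3). Without control 3 and nKO 4 that r was 0.08. None of these pairs passes the adjustment, and no centred r was taken for them. The neighbours on chromosome 12 differed among themselves: Rian and Mirg had r = 0.60 (permutation p = 0.0702, rho 0.59 with permutation p = 0.0813, 0.45 without control 1 and control 3, 0.52 without control 1 and control 4), Meg3 and Mirg 0.39 (permutation p = 0.273, rho 0.53 with permutation p = 0.123, 0.76 without nKO 4 and control 3 but 0.08 without control 1 and control 4), and Meg3 and Rian -0.02 (permutation p = 0.954, rho -0.03 with permutation p = 0.945, 0.59 without nKO 4 and control 3, 0.43 without control 1 and control 3).

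Of all genes with a mean of at least 5 CPM, the 5 with the highest r with Malat1 were Tulp4 (0.93), Dusp11 (0.92), a phosphatase that acts on RNA 5′ ends, Cers2 (0.92), a ceramide synthase, Kit (0.91), a receptor tyrosine kinase, and Fam227a (0.91). The 5 with the lowest were Cds2 (-0.96), an enzyme of phospholipid synthesis, Atp6v0d1 (-0.95), a subunit of the vacuolar proton pump, 2510002D24Rik (-0.95), Afg3l2 (-0.94), a subunit of a protease of the mitochondrial inner membrane, and Fam155a (-0.93). Their adjusted p ran from 0.108 to 0.174, so none passed 5%. Centred on the group means, r was 0.65 to 0.90 for the first 5 and -0.91 to -0.71 for the others. Since these genes were picked for their r, the values are a description over 10 libraries.

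A measure of transcript length moved with Malat1 when the libraries of both genotypes were pooled. Each gene was centred on its mean log2 CPM over the libraries. For each library the median of genes with transcripts of at most 1904 bases (the lower quartile) was then taken from that of genes of at least 4461 bases (the upper quartile). It was 0.076, 0.001, 0.006, 0.173 and 0.018 in nKO 1 to 5, against -0.13, 0.029, -0.08, -0.057 and -0.077 in control 1 to 5. The groups overlapped only through control 2, and nKO 4 and control 1 stood at the ends. Its r with Malat1 was 0.78 (permutation p = 0.00783, rho 0.75 with permutation p = 0.0179, 0.60 without the 2 libraries farthest from its median), and its r with Kcnq1ot1 was 0.85 (permutation p = 0.00180, rho 0.72 with permutation p = 0.0235, 0.65 without 2 libraries). The pooled p-values take in the step between the genotypes, for which Malat1 was chosen. Centred on the group means, r was 0.46 for Malat1 (exact permutation p = 0.226) and 0.69 for Kcnq1ot1 (exact permutation p = 0.0415). With Neat1 the pooled r was 0.45 (permutation p = 0.198, rho 0.46 with permutation p = 0.192, 0.83 without 2 libraries), and with Miat -0.64 (permutation p = 0.0482, rho -0.58 with permutation p = 0.0903, -0.67 without 2 libraries). With the other 4 RNAs it lay between -0.29 and 0.05. A higher r with this measure than that of Malat1 was found in 1.80% of genes, and than that of Kcnq1ot1 in 0.487%. This measure was chosen after values had been seen, its p-values for the 8 RNAs are not adjusted, and the part of length in the differences of Malat1 and Kcnq1ot1 was not tested. With control 1 and nKO 4 both left out, the log2 fold change of Malat1 was 0.34 (SE 0.08).

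RNAs and proteins related to the 8 were described through lists. Each count is to be read beside all 14378 tested genes, of which 47.8% had a positive log2 fold change, 5.65% an unadjusted p under 0.05 and 0.0139% were called by edgeR. Of 22 tested other long non-coding RNAs, 17 had a positive and 5 a negative log2 fold change, with a median of 0.04, 1 at an unadjusted p under 0.05 and 0 called by edgeR. Firre, an X-linked nuclear RNA, was that 1, at 41.0 ± 1.87 CPM in nKO and 47.9 ± 5.18 CPM in controls (log2 fold change -0.22, SE 0.08), and it was the 1 RNA of the list whose groups did not overlap, a pattern that 97 of 14378 genes (0.675%) showed in this direction. Of 17 tested snoRNA host genes, the class of Snhg11, 10 were positive, with a median of 0.02, 2 at an unadjusted p under 0.05 and 0 called. Snhg18 had a value of 0.53 (SE 0.24) at 1.296 ± 0.320 CPM in nKO and 0.900 ± 0.188 CPM in controls. Without control 1 and nKO 4, 10 of the 22 other long non-coding RNAs were positive, and 11 without control 1 alone.

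Proteins of the bodies that Neat1 and Malat1 occupy were tested as messenger RNAs. Of 31 paraspeckle protein genes 19 were positive (47.8% of all tested genes), with a median of 0.03, beside -0.01 over all tested genes, 6 at an unadjusted p under 0.05 (5.65% of all tested genes) and 0 called. Without control 1 and nKO 4, 15 of the 31 were positive. Hnrnpa1 and Hnrnph3, both RNA-binding proteins, led them with log2 fold changes of 0.55 (SE 0.21) and 0.63 (SE 0.23). Their r with Malat1, pooled over the genotypes, was 0.83 and 0.76, and Taf15 had 0.84. These genes were picked for a small p or a high r. Over the 31 genes the median r was 0.28 and 21 had an r above 0, beside a median of -0.02 over all tested genes. Of 28 nuclear speckle protein genes 16 were positive, with a median of 0.01, 3 at an unadjusted p under 0.05 and 0 called; Sf3a1, a subunit of the U2 particle of the spliceosome, had 0.29 (SE 0.10). Without nKO 4, 10 of these 28 were positive.

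Some messenger RNAs stay in the nucleus with unspliced introns, and a list of such genes was read as well. Of 28, 25 were positive, beside 47.8% of all tested genes, with a median of 0.07, 1 at an unadjusted p under 0.05 and 0 called by edgeR. Tra2a, a splicing regulator, averaged 58.9 ± 6.36 CPM in nKO and 47.9 ± 6.19 CPM in controls (log2 fold change 0.30, SE 0.10). Nktr had 0.17 (SE 0.08) and Mdm4, an inhibitor of p53, 0.18 (SE 0.09). The count fell to 19 without control 1, and to 15 without control 1 and nKO 4 together.

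Genes around the 2 RNAs of chromosome 19 showed the other sign: 2 of 13 tested neighbours of Malat1 and Neat1 were positive and 11 negative, with a median of -0.11, 1 at an unadjusted p under 0.05 and 0 called. Capn1, a calcium-dependent protease, was that 1, at 15.1 ± 2.09 CPM in nKO and 18.9 ± 2.37 CPM in controls (log2 fold change -0.32, SE 0.12). Without control 1, 7 of the 13 were positive, without nKO 4, 6, and without both, 8. Of 12 genes for processing the Malat1 end, among them subunits of RNase P and the tRNA 3′ end nuclease Elac2, 2 were positive and 10 negative, with a median of -0.07, 0 at an unadjusted p under 0.05 and 0 called (1 to 4 positive with 1 library left out). For Elac2, named for its small p, the log2 fold change was -0.11 (SE 0.08), with a pooled r of -0.72 with Malat1. The median r of the 12 genes was -0.19, and 2 had an r above 0. Of the coding genes of the Dlk1-Dio3 domain, 5 of 8 passed the count filter, and 1 was positive and 4 negative (1 to 3 positive with 1 library left out), with 0 at an unadjusted p under 0.05 and 0 called.

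Malat1 carries m6A marks, and 12 of 15 tested genes for writing and reading that mark were positive, with a median of 0.08, 2 at an unadjusted p under 0.05 and 0 called. On the log2 scale Hnrnpa2b1 differed by 0.33 (SE 0.11) and Ythdc1, the nuclear reader, by 0.32 (SE 0.13). Of 20 genes for nuclear RNA decay, 10 were positive, with 1 at an unadjusted p under 0.05 and 0 called. Zfc3h1, a part of the complex that brings polyadenylated nuclear RNA to the exosome, had 0.17 (SE 0.08).

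Markers of the cell types of cortex were read beside these values, with summed levels scaled by library size alone. The r of a summed level was taken with the TMM-scaled level of Malat1. None of the marker genes was at 0 in every library, but 1 of 5 choroid plexus markers and 2 of 4 blood markers passed the count filter, and the summed choroid plexus level was 3.24 to 4.69 CPM in nKO and 1.83 to 4.64 CPM in controls. The summed level of 6 markers common to neurons was 6090 to 6490 CPM in nKO and 5330 to 6450 CPM in controls, with r = 0.67 with Malat1, while 3 of the 6 had a positive log2 fold change and their median was 0.01. That of 6 astrocyte markers was 1600 to 1700 CPM in nKO and 1650 to 1860 CPM in controls, with r = -0.64, and 0 of the 6 had a positive log2 fold change. Excitatory neuron markers summed to 1710 to 2130 CPM in nKO and 1480 to 2200 CPM in controls. Of these markers 5 of 6 had a positive log2 fold change (median 0.09), with r = 0.325. Oligodendrocyte markers summed to 1440 to 1850 CPM in nKO and 1480 to 1870 CPM in controls, with 2 of 6 positive and r = -0.105. For the other marker sets r ran from -0.37 for microglia to 0.44 for oligodendrocyte precursors and choroid plexus. The part of these cell types in the difference of Malat1 was not tested, and the values of r are a description over 10 libraries.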

How the data were processed

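Per the labels' protocols, total RNA of 10 cortices (5 nKO, 5 control) was treated with DNase, fragmented for 6 min and made into stranded libraries depleted of ribosomal RNA. Salmon, DESeq2, bcl2fastq and the build mm10 are listed in the submitters' processing notes, with no versions. Per the file headers, the authors deposited estimated counts and TPM per gene and per RefSeq transcript, and the authors also deposited a score for 22 genes whose scale is not stated.

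Here estimated counts were rounded and filtered by filterByExpr (minimum count 10, minimum total 15), which kept 14378 genes and 99.92% to 99.94% of the counts of each library. They were scaled by TMM and fitted with edgeR 4.0.16 in R 4.3.3 (quasi-likelihood, robust, Benjamini-Hochberg at 5%); DESeq2 1.42.0 and limma 3.58.1 were alternatives. Intervals are 95% intervals. Correlations used log2 CPM with a prior count of 2 and 100000 permutations, and shares of transcripts an exact permutation test over 252 regroupings. The fits were tested on simulated data. Estimated counts carry uncertainty in dividing reads between transcripts that these tests leave out. A p-value of a genotype difference sets it against the spread between animals. Permutations for r over the 10 libraries shuffle across the genotypes, so their p-values also take in the step between the genotypes. Those for centred r shuffle within each genotype. Lists are small: Snhg14 and Rbm7 stand in 2 of them each. The 8 RNAs, the lists and the alternatives were chosen with earlier results of these data known. Genes were named by rule: the 8 RNAs, Atad3a, the 5 genes at each end of r with Malat1, and members of each list with the smallest p or the highest r. Sequences came from RefSeq and GENCODE M21 tables of GRCm38, the assembly of mm10, where 7 of the 8 RNAs had a promoter.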

Additional observations from a re-analysis of the deposited data

Results flagged for a closer look

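Among 34 groups of 5 libraries examined, 4 held a library whose gap to its nearest neighbour took more than 0.71 of the range of its group, where chance gives about 1 in 20. In nKO 4, Meg3 was at 2170 CPM, under the other nKO libraries, and the share of the 11472-base Meg3 transcript was 47.9%, above them. In control 3, Snhg11 was at 1328 CPM, above the other controls. In control 1, the ribosomal precursor Rn45s was at 50.7 CPM on the scale of library size alone.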

How the results depend on the processing

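Of 832 comparisons of a result with its value under another setting, 798 were counted as kept. These kept direction and side of the threshold, changed little as a count, or moved by less than the spread between animals. Fold changes of the 8 RNAs and list medians were judged by the size of the shift alone. The DESeq2 call of Malat1 and the sign turns in the fold change of Snhg11 are thus among the 798. Leaving out 1 of 5 libraries can hardly move a fold change by more than that spread, so the 798 say little about stability. No paired analysis was possible because the labels give no replicate number that the groups share. The number of genes past 5% was 2, with 5 in DESeq2 and 2 to 3 with 1 library left out; for transcripts it was 0, with 28 in DESeq2 and 0 to 1 with 1 library left out. Genes past 5% in transcript usage were 1, and 2 to 9 with 1 library left out; the cause was not tested. The number of genes past 5% for r with Malat1 was 0, and 176 with log2(TPM + 0.1). The median log2 fold change of the other long non-coding RNAs was -0.0203 without control 1 and nKO 4, and that of nuclear RNA decay genes ran from -0.0126 to 0.0408 with 1 library left out. The sign of r with Malat1 turned for 5 RNAs under these settings, and for Rian when control 3 and nKO 4 were both left out; the cause was not tested. After centring it was -0.10 for Neat1, 0.17 for Mirg, 0.083 for Miat and -0.003 for Snhg11. With log2(TPM + 0.1) it was 0.04 for Mirg and 0.27 for Miat. With control 1 and nKO 4 left out it was 0.04 for Miat and -0.14 for Snhg11. For Snhg11 it was -0.015 with library size alone and 0.00 with TMM set without the 8 RNAs. With 1 library left out, r ran from -0.001 to 0.71 for Meg3, from -0.87 to -0.075 for Rian, from -0.47 to 0.094 for Miat and from -0.11 to 0.75 for Snhg11. Depth limits Mirg, with 132 to 275 counts a library.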
